A study of Helicoverpa armigera with 12 samples.

Results

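Silk in *H. armigera* was followed through 24 contigs whose descriptions in the deposited table name fibroin, sericin or seroin. A contig is a single assembled transcript sequence, and these 24 belonged to 18 unigenes of the 73709 unigenes and 99711 contigs in the table. Members were found by searching the descriptions from nr (the NCBI protein collection) and Swiss-Prot for those 3 words, with species names removed. One of them, c56455_g2_i1, was selected on its measured values, because its difference between 1st and 5th instar larvae ranked 1 among the 18739 contigs with an nr description, so its values are given as a description and no test is made on it. RNA was sequenced from whole bodies of moths reared on artificial diet. Each of 4 libraries pooled 30 larvae of the 1st instar at day 3, and each of 4 pooled 10 larvae of the 5th instar at day 1. Each of the 4 adult libraries pooled 10 moths on day 1 after eclosion, with replicates 1 and 2 male and replicates 3 and 4 female. The sources used here give no sex for the larvae and do not say whether pools came from separate rearings. The p-values therefore measure only the spread between these pools. In the stage comparisons male and female adults were 1 group, so differences between them count in this spread, also where larvae are compared.

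Caterpillars spin silk from a pair of modified labial glands. The thread is a core of fibroin heavy chain joined to fibroin light chain, with the glycoprotein P25 (fibrohexamerin) holding these units together, and sericins form a sticky coat around the core. Seroins are small silk proteins with inhibitory activity against microbes. The glands are larval organs that degenerate during metamorphosis. Because whole bodies were sequenced, fewer gland cells and less RNA per cell cannot be told apart in any value below.

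Values are FPKM (fragments mapped to a contig, scaled for contig length and for all mapped fragments of the library), estimated by the authors. No read counts were used, so the depth behind a value is unknown. Summed over contigs, larval libraries held 1074573 to 1509632 FPKM and adult libraries 447094 to 688947, and 49265 to 60232 contigs were above 0. The correlation of log2(FPKM + 1) between libraries of a stage, across contigs, which are not independent replicates, was 0.971 to 0.977 in 1st instars and 0.725 to 0.867 in 5th instars. Replicate 1 of the 5th instars stood apart for several silk contigs, and results that rest on it are given with and without it.

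The 24 contigs summed to 4598 FPKM ± 676 (SD, n = 4) per library in 1st instars, with a range of 3645 to 5238, and the singled-out contig gave 1352 of this mean. In 5th instars they summed to 533 ± 390 (SD, n = 4), between 88.5 and 1038. In adults the sum was 1091 and 872 in the male libraries and 108 and 52.9 in the female libraries. These sums correspond to 0.329% ± 0.0590 of the FPKM of a library in 1st instars and 0.0424% ± 0.0268 in 5th instars (SD, n = 4), and to 0.168% and 0.127% in males and 0.0199% and 0.0118% in females. The adult mean, 531 FPKM as deposited, was 816 with libraries scaled to the same sum. The sums hide different profiles, because the contigs that were high in larvae and the contigs that were high in male adults are different ones, as the map of all members by library shows.

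**Figure D1:**
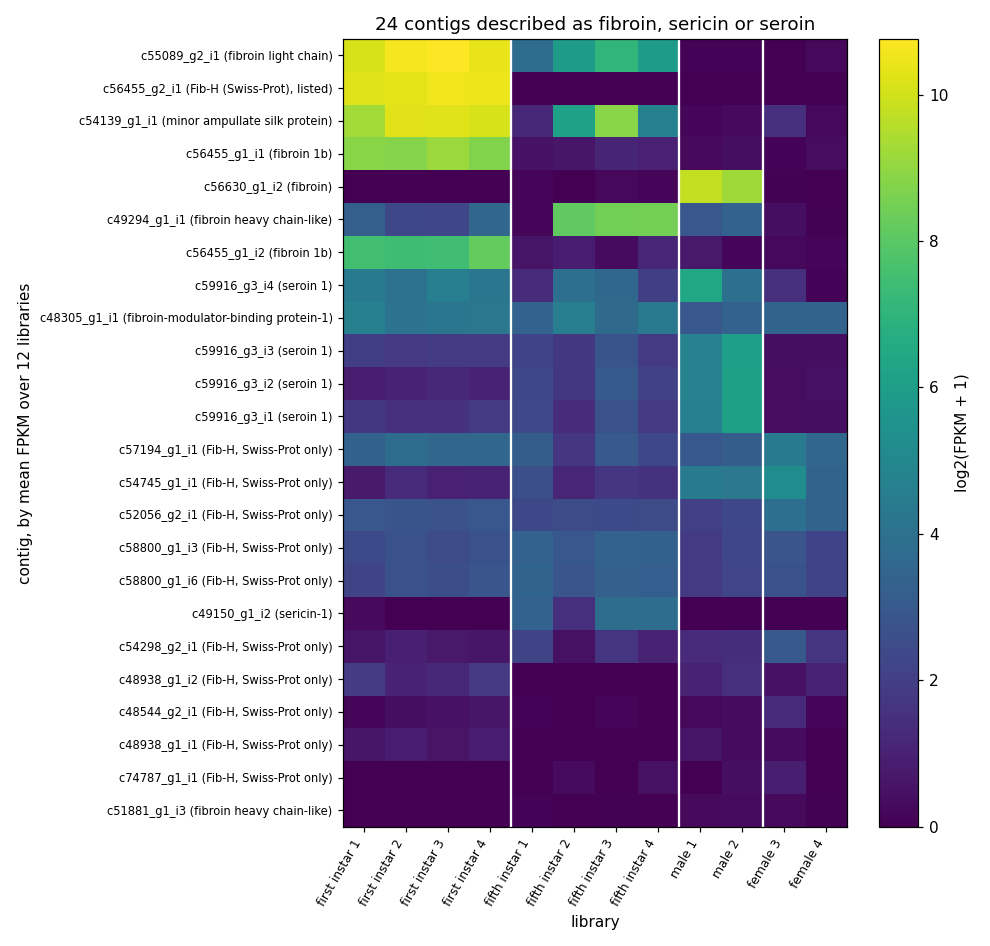
Level of the 24 contigs, as log2(FPKM + 1), in rows by mean level and in columns by library, with white lines between 1st instars, 5th instars, males and females. The light chain, the 3 contigs of component c56455 and c54139_g1_i1 are bright in the 4 libraries of 1st instars, and c56630_g1_i2 is bright in the 2 male libraries.

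The words are a weak guide to silk, and the labels were checked against the other annotation. Of the 24 contigs, 12 carried one of the 3 words in the nr description and 12 only in Swiss-Prot. The latter include the singled-out contig, called a hypothetical protein in nr, and c54139_g1_i1, named there for a silk protein of a spider. The Swiss-Prot name of fibroin heavy chain was given to 14 contigs. A Pfam protein domain was listed for 4 contigs, and only that of the light chain, L-fibroin, is a silk domain. The other 3 were a SAP domain, a PH domain and a chitin-binding domain. Fibroin heavy chain is a long repeat of glycine, alanine and serine, and a match to it alone says little about what a protein is. Contigs are therefore called here by their descriptions.

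The fibroin light chain contig, c55089_g2_i1, was the only member with a silk name in nr, Swiss-Prot and Pfam alike. Its nr match was the fibroin light chain of the moth *Haritalodes derogata*. It stood at 1101, 1554, 1734 and 1360 FPKM in 1st instars, at 13.3, 60.6, 133 and 60.3 in 5th instars, and at 0.082, 0.062, 0.026 and 0.157 in adults. The 3 stages did not overlap, and male and female adults were both near 0. Mean levels were 1437 ± 271, 66.9 ± 49.6 and 0.0818 ± 0.0553 FPKM (SD, n = 4), so 1st instars were 21.5-fold above 5th instars, and these in turn 819-fold above adults. In limma's test the difference of log2(FPKM + 1) was 4.77 (SE 0.518) between 1st and 5th instars, with an adjusted p of 3.45e-05. Adults fell by 5.59 from 5th instars (SE 0.518, limma adjusted p 6.72e-06). Without replicate 1 of the 5th instars, the lowest for this contig, these differences were 4.15 and -6.21. Among contigs above 0, the light chain sat at percentile 99.7 in 1st instars, 97.7 in 5th instars and 8.50 in adults.

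The third core component, P25, is described by other words and is no member, but its contig c57725_g1_i1 came from the list of silk filament partners and ran with the light chain. It was measured at 148, 155, 144 and 166 FPKM in 1st instars and at 0.102, 5.32, 5.25 and 2.27 in 5th instars. Adults ranged from 0, as listed, to 0.039. Larvae of the 1st instar lay far above every 5th instar library, and replicate 1 was again the lowest of the 5th instar. The difference between 1st and 5th instars was 5.48 (SE 0.451, limma adjusted p 4.03e-06). Adults fell by 1.76 from 5th instars (SE 0.451, limma adjusted p 0.0128). That call was lost, with a limma adjusted p of 0.0640, when only those stages entered the fit. Without replicate 1 of the 5th instar the 2 differences were 4.93 and -2.31. Over the 12 libraries the log2(FPKM + 1) of P25 and light chain had a Pearson r of 0.943, which describes libraries that fall into stages.

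Among contigs with a heavy chain match, c54139_g1_i1 followed the light chain most closely, with r of 0.967 over the 12 libraries. Its nr match was a minor ampullate silk protein of a spider. It was listed at 615, 1257, 1195 and 1118 FPKM in 1st instars and at 1.32, 71.2, 456 and 25.2 in 5th instars. In adults it was 0.097 and 0.218 in males and 1.69 and 0.163 in females. The 5th instar libraries were widely spread, and the lowest of them was below the highest adult library. Larvae of the 1st instar exceeded 5th instars by 4.74 (SE 1.18, limma adjusted p 0.00870), and by 3.40 without replicate 1 of the 5th instar. The ratio of mean FPKM was 7.55 and rested on replicate 3 of the 5th instar, without which it was 32.1 (difference 5.94). Adults fell by 4.72 from 5th instars (SE 1.18, limma adjusted p 0.0114). The adjusted p was 0.0643 with only those stages in the fit, and without replicate 1 of the 5th instar the difference was -6.06.

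The level of the light chain relative to c54139_g1_i1 was even in 1st instars, with FPKM ratios of 1.79, 1.24, 1.45 and 1.22. In 5th instars the ratios were 10.1, 0.851, 0.293 and 2.39. FPKM is scaled per contig length, so these are ratios of levels per length.

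The singled-out contig c56455_g2_i1, with a Swiss-Prot match to fibroin heavy chain, was at 1199, 1281, 1488 and 1438 FPKM in 1st instars and was listed at 0 in the other 8 libraries. Its mean of 1352 ± 135 (SD, n = 4) was near that of the light chain in the same libraries. A pattern of values above 0 in all 4 libraries of 1st instars and of 0 in all others was shared by 270 contigs (0.976% of those tested), of which 37 had an nr description. The singled-out contig was the highest of these, and the next, c55333_g1_i1, had a mean of 182 FPKM.

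Contigs most like it in profile, by Pearson r of log2(FPKM + 1) over the 12 libraries, were sought with the members left out. None of those found could therefore be named fibroin, sericin or seroin. Among members, c56455_g1_i1 and c56455_g1_i2 had r of 0.997 and 0.995. The closest contigs outside the members that had an nr description follow. They were c55333_g1_i1 (r = 0.9999, described only by a locus name), c64391_g4_i1 (r = 0.9996, an RNA polymerase II subunit), c50454_g1_i1 (r = 0.9995, pherophorin-dz1), c53988_g1_i1 (r = 0.9995, a subunit of an N-terminal acetyltransferase) and c52052_g1_i2 (r = 0.9992, a ribonuclease P subunit). Their 1st instar means were 182, 82.2, 70.9, 52.6 and 8.70 FPKM in that order. All are contigs with levels near 0 outside 1st instars.

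Contigs c56455_g1_i1 and c56455_g1_i2 came from the same assembly component as the singled-out contig and are not separate evidence for its profile. Both had an nr match to fibroin 1b of a spider and a Swiss-Prot match to fibroin heavy chain. The first was at 459, 443, 564 and 425 FPKM in 1st instars, at 0.432, 0.566, 1.18 and 1.00 in 5th instars and between 0.091 and 0.334 in adults. The second was at 183, 172, 176 and 298 FPKM in 1st instars, between 0.242 and 1.24 in 5th instars and between 0.107 and 0.672 in adults. Unlike the light chain, both were at or below 1.24 FPKM in every 5th instar library, and the mean of c56455_g1_i1 was 594-fold higher in 1st than in 5th instars. Adults and 5th instars did not overlap for c56455_g1_i1, but the difference of -0.53 did not pass (SE 0.197, limma adjusted p 0.0652). For c56455_g1_i2 the same difference was -0.39, with a limma adjusted p of 0.288. Without replicate 1 of the 5th instar, c56455_g1_i1 passed with -0.64 (limma adjusted p 0.0357). Both contigs passed the filter on the mean only through the 1st instars. These comparisons of adults with 5th instars rest on values of at most 1.24 FPKM and are to be read with that limit.

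**Figure D2:**
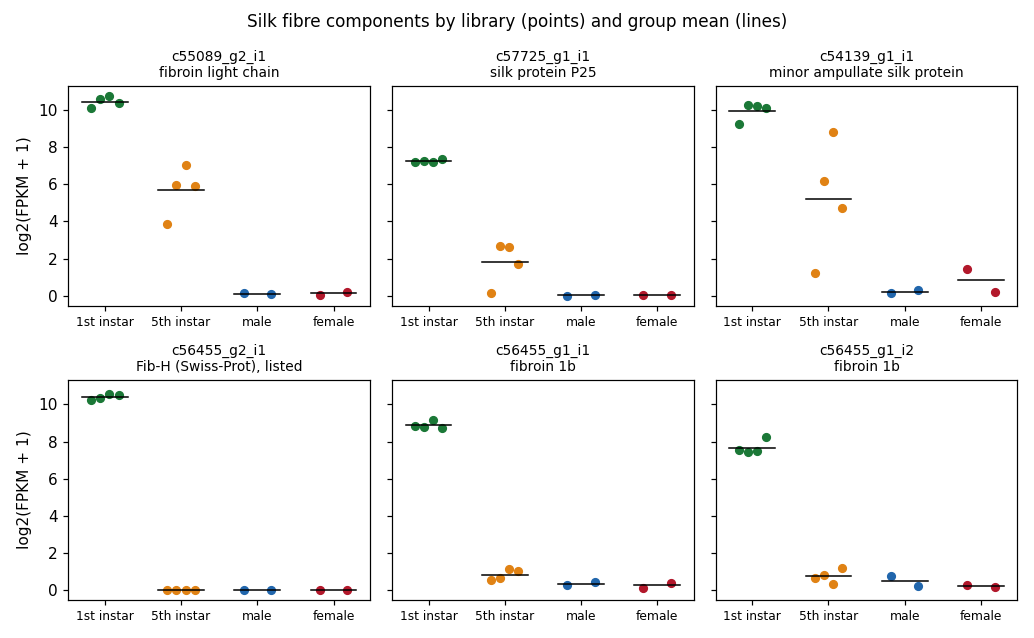
Level of light chain, P25, c54139_g1_i1 and the 3 contigs of component c56455, as log2(FPKM + 1), with a point for each library and a line at the mean of each group. All 6 are highest in 1st instars, the first 3 keep an intermediate and spread level in 5th instars, and the last 3 are near 0 there.

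Seroin was represented by 4 contigs of 1 unigene, c59916_g3, all with an nr match to seroin 1 of *H. armigera*, so they are isoforms and not replicates. Here males stood out. Contig c59916_g3_i1 was at 24.2 and 68.6 FPKM in males and at 0.286 and 0.337 in females. It was between 1.75 and 2.51 in 1st instars and between 1.58 and 5.54 in 5th instars, so female adults were the lowest group. The male level was 149-fold the female level, with a difference of 5.00 (SE 0.496, limma adjusted p 4.51e-05). An exact test of 2 libraries against 2 cannot pass 0.05, and with only the sexes in the fit the limma adjusted p was 0.0514.

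Contigs c59916_g3_i2 and c59916_g3_i3 gave almost the same picture. Their male libraries were at 26.7 and 68.8 FPKM and at 26.4 and 67.3, and no female library was above 0.421. The differences of 5.02 and 5.04 had limma adjusted p of 2.15e-05 and 1.19e-05. Isoform c59916_g3_i4 had another profile, with 20.9, 15.8, 23.1 and 17.6 FPKM in 1st instars, above each of the 5th instar values of 1.45, 14.2, 11.4 and 2.98. Its males were at 84.9 and 14.2 and its females at 1.79 and 0.079. The sex difference of 4.38 (SE 0.960, limma adjusted p 0.0136) did not hold in the fit of the sexes alone (adjusted p 0.184), without male replicate 1 (0.128) or without female replicate 4 (0.0681). No isoform of seroin passed in a comparison of stages in the fit of 3 stages. That fit held male and female adults as 1 group, so their gap counts in its spread. Larval stages did not overlap for c59916_g3_i2, with 0.780 to 1.31 FPKM in 1st and 2.37 to 7.20 in 5th instars.

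Fibroin-modulator-binding protein-1, known from *Bombyx mori* as a factor that binds the fibroin gene, was the regulator among the members. Its contig, c48305_g1_i1, carried a Swiss-Prot match to a zinc finger protein. It was at 24.5, 16.2, 17.8 and 18.5 FPKM in 1st instars, at 9.53, 23.0, 12.1 and 19.3 in 5th instars and at 6.47, 9.46, 9.91 and 9.82 in adults. Unlike the fibre genes it was present at a similar order of level in every library, and the larval stages overlapped (difference 0.31, limma adjusted p 0.402). Adults were 1.03 below 1st instars (SE 0.280, limma adjusted p 0.0101), but the sign turned to 0.17 when all libraries were scaled to the same FPKM sum (adjusted p 0.716). Against 5th instars the difference was -0.72 (limma adjusted p 0.0807), or -0.92 without replicate 1 of the 5th instar (adjusted p 0.0234), and it turned to 0.30 under that scaling.

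Of the silk gland factors that *B. mori* is known for, SGF-1 is a fork head protein and SGF-3 a POU protein. The SGF-3 contig c52818_g1_i1 was at 14.4, 18.2, 20.7 and 19.7 FPKM in 1st instars and at 10.02, 6.06, 9.19 and 5.88 in 5th instars. Adults were at 31.2 and 24.1 in males, above every 1st instar library, and at 12.6 and 15.6 in females, within or just below the 1st instar range. Larvae of the 1st instar were 1.15 above 5th instars (SE 0.293, limma adjusted p 0.00955), and adults were 1.27 above them (SE 0.293, limma adjusted p 0.00720). SGF-1 was named by 3 isoforms of 1 unigene, c61519_g1_i1, c61519_g1_i2 and c61519_g1_i3, all at or below 1.94 FPKM in every library. Adults differed from 1st instars by -0.67, -0.44 and -0.47 in that order, with limma adjusted p of 0.0118, 0.0887 and 0.0786, so 1 of the 3 passed. That isoform, c61519_g1_i1, had means of 1.64 FPKM in 1st instars, 1.30 in 5th instars and 0.665 in adults. It passed the filter on the mean only through the 1st instars, in which it was highest, and the test is to be read with that limit. Its difference became 0.0012 with libraries scaled to the same sum. None of the 3 passed in the other comparisons. SGF-1 was added after its values were seen.

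The whole list was of silk gland factor, fork head, POU, Antennapedia and Sex combs reduced type factors, with the words sage and fibroin-modulator. It found 52 contigs, of which 31 were tested, among them the member c48305_g1_i1 described above. Of these, 4 were higher and 2 lower in 1st than in 5th instars, with a median difference of 0.15, where 21.7% of all tested contigs were higher and 18.4% lower. Adults had 3 higher and 1 lower than 5th instars (7.31% and 19.7% of all contigs) and 4 higher and 9 lower than 1st instars (14.1% and 31.6%), with medians of -0.19 and 0.18.

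The only contig with the word sericin was c49150_g1_i2. Its nr match was sericin-1 of a wasp and its Swiss-Prot match the lysozyme D of a slime mould. It was at 9.46, 1.72, 13.0 and 13.5 FPKM in 5th instars, at 0.211 in replicate 1 of the 1st instar, and listed at 0 in the other 1st instar libraries and in all adults. No library outside the 5th instar was above 0.211. It passed the filter only through the 5th instars, in which it was high, and the tests are to be read with that limit. The difference of 1st from 5th instars was -3.05 (SE 0.446, limma adjusted p 3.08e-04), and that of adults from 5th instars -3.12 (SE 0.446, limma adjusted p 2.43e-04).

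Another contig named for fibroin, c49294_g1_i1, was highest in the 5th instar. Its nr match was a fibroin heavy chain-like protein of *Musca*, but Swiss-Prot gave a glycine-rich RNA-binding protein and KEGG an hnRNP. It was at 277, 357 and 368 FPKM in replicates 2 to 4 of the 5th instar and at 0.127 in replicate 1. Larvae of the 1st instar were at 8.69, 4.08, 3.85 and 10.6, males at 6.68 and 9.48, and females at 0.318 and 0.051. The difference of 1st from 5th instars was -3.47 (SE 1.62, limma adjusted p 0.109), and without replicate 1 of the 5th instar it was -5.52, with an adjusted p of 2.68e-04. Adults differed from 5th instars by -4.63 (limma adjusted p 0.0538), and by -6.68 without that replicate (adjusted p 6.04e-05). With all libraries kept, the comparison of larvae passed with a pseudocount of 5 (adjusted p 0.0376). That of adults passed with the same pseudocount (0.0300), a mean of at least 5 FPKM (0.0353), unigene sums (0.0490) or the sexes as separate groups (0.0465). The calls thus change with that library and with these settings.

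The contig described simply as fibroin, c56630_g1_i2, with an nr match in the silk moth *Antheraea pernyi*, was found in males. It was at 876 and 590 FPKM in the male libraries, at 0.058 and 0 as listed in females, at 0 in all 1st instar libraries and at no more than 0.161 in 5th instars. It passed the filter on the mean only through the males, the group in which it was high, and the test is to be read with that limit. The sex difference was 9.45 (SE 0.216, limma adjusted p 8.72e-10), and with only the sexes in the fit the adjusted p was 0.0109. The 4 other isoforms of its unigene are described as a hypothetical protein, with a Swiss-Prot match to a per-hexamer repeat protein, or as a glycine-rich cell wall protein, and not as fibroin. They had male means of 565, 567, 623 and 1040 FPKM and female means of no more than 0.056, so the male level belongs to a unigene of which 1 isoform bears the name. The list of testis genes had 12 contigs higher and 4 lower in males among 88 tested, beside 6.82% and 5.56% of all tested contigs. The summed FPKM of this list was 759 and 1042 in males and 615 and 410 in females. In larvae, where c56630_g1_i2 was near 0, the list summed to 854 to 932 in 1st instars and 3341 to 6798 in 5th instars. The part of the testis in the male level of these contigs was not tested.

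**Figure D3:**
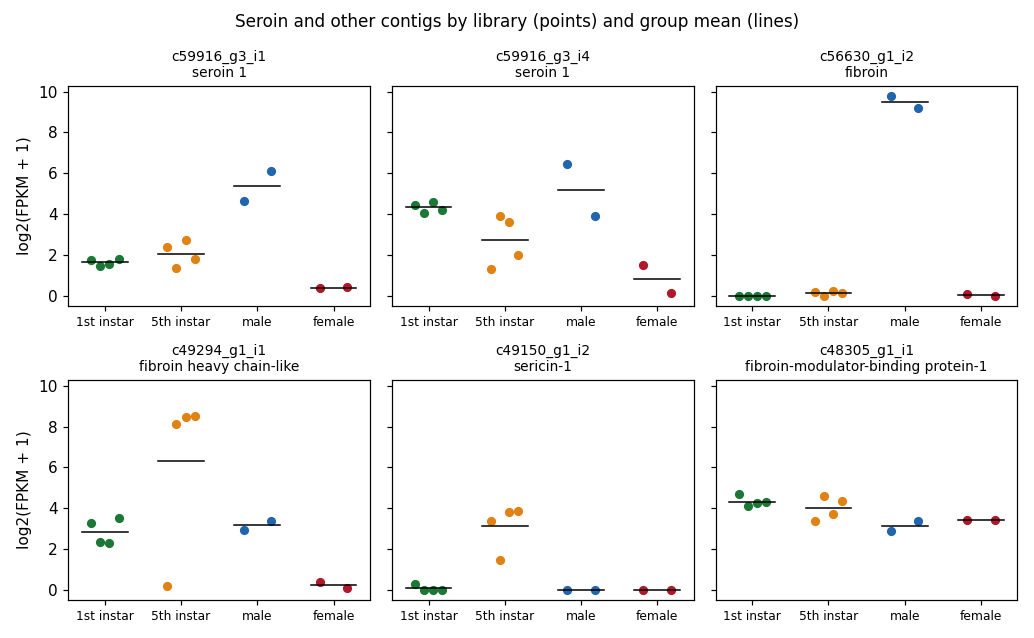
Level of 2 seroin isoforms, c56630_g1_i2, c49294_g1_i1, the contig named sericin-1 and fibroin-modulator-binding protein-1, as log2(FPKM + 1), with a point for each library and a line at the mean of each group. Seroin and c56630_g1_i2 have their highest group mean in males, but for seroin isoform c59916_g3_i4 male replicate 2 lies below every 1st instar library. Contig c49294_g1_i1 is high in 3 of 4 libraries of 5th instars, and the modulator-binding protein is at a similar level throughout.

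The 6 remaining contigs that passed the filter had the heavy chain name only in Swiss-Prot. Their levels were low, with stage means between 0.673 and 21.4 FPKM. Contig c54745_g1_i1 was the one with the largest change, at 20.3 and 18.3 FPKM in males and 36.8 and 10.03 in females against 1.04 ± 0.281 in 1st instars and 2.67 ± 1.74 in 5th instars (SD, n = 4). All adult libraries were above all larval ones, and adults were 2.58 above 5th instars (SE 0.378, limma adjusted p 3.01e-04). Contig c52056_g2_i1 was the only member called lower in males, at 3.06 and 4.05 FPKM against 14.3 and 9.83 in females. Its difference was -1.51 (SE 0.223, limma adjusted p 0.00113), and with only the sexes in the fit the adjusted p was 0.118.

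In the other 4 the differences were near 1 or below on the log2(FPKM + 1) scale. Isoforms c58800_g1_i3 and c58800_g1_i6 carried the KEGG name of a calpain, a calcium-activated protease. They fell by 0.98 and 0.97 from 5th instars to adults (limma adjusted p 0.00788 and 0.0102), and with libraries scaled to the same sum both differences shrank to -0.03. Isoform c58800_g1_i3 was also 0.67 lower in 1st than in 5th instars (limma adjusted p 0.0359). This call was lost under 4 other settings (adjusted p up to 0.260, with unigene sums). It was also lost when any 1 of 7 larval libraries was left out (adjusted p up to 0.0964, without replicate 1 of the 1st instar). Contig c57194_g1_i1, with the SAP domain, was 10.9 ± 1.48 FPKM in 1st and 5.34 ± 2.65 in 5th instars (SD, n = 4), a difference of 1.00 (limma adjusted p 0.0468) that was lost under 5 other settings and when any 1 of 8 libraries was left out (adjusted p up to 0.116 without replicate 2 of the 5th instar). Contig c54298_g2_i1, with the PH domain and the KEGG name of a scaffold protein of Ras signalling, was 0.673 ± 0.189 FPKM in 1st instars and 3.07 ± 2.65 in adults (SD, n = 4). The groups did not overlap, and the difference was 1.11 (limma adjusted p 0.0484). That call was also lost under 5 other settings and when any 1 of 8 libraries was left out (adjusted p up to 0.112 without female replicate 3).

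The 5 contigs below a mean of 1 FPKM were not tested. Their means ran from 0.072 to 0.998 FPKM, and 4 of them had the heavy chain name only in Swiss-Prot, on contigs described in nr as an endoglucanase, a plant-type receptor kinase, a serine/arginine repetitive matrix protein and a hypothetical protein. The remaining contig, c51881_g1_i3, is named fibroin heavy chain-like but carried a resilin match and a chitin-binding domain. Just below the limit lay c48938_g1_i2, at 1.89 ± 0.789 FPKM in 1st instars, listed at 0 in all 5th instar libraries and with a mean of 1.104 in adults. Just above it lay c54298_g2_i1, with a mean of 1.85 FPKM.

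Counts over the 18 tested contigs without the singled-out one are given as a description, since some of them passed the filter only through the group in which they were high. In 1st against 5th instars 5 were called higher and 2 lower, against a background over all tested contigs of 21.7% higher and 18.4% lower. The 5 are the light chain, c54139_g1_i1, c57194_g1_i1 and the pair from the component of the singled-out contig, which the fit called but which are not read as tests. In adults against 5th instars 1 was higher and 5 were lower, with a background of 7.31% and 19.7%, and without replicate 1 of the 5th instar 2 were higher and 8 lower. In adults against 1st instars 2 were higher and 5 lower, with a background of 14.1% and 31.6%. The 5 lower again include the pair c56455_g1_i1 and c56455_g1_i2, which are not read as tests there either. Males had 5 higher and 1 lower than females, with a background of 6.82% and 5.56%, and 4 of the 5 are seroin isoforms of 1 unigene. The median difference over the 18 was -0.18, -0.06, -0.19 and -0.0046 in these 4 comparisons, beside -0.012, -0.19, -0.12 and 0.086 over all contigs.

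The scale of the libraries bears on the stage comparisons. With every library scaled to the same FPKM sum, the median over all contigs moved from -0.19 to 0.53 in adults against 5th instars and from -0.12 to 0.66 in adults against 1st instars. The share of calls that were higher moved from 27.0% to 71.0% in the former, from 30.9% to 70.0% in the latter and from 55.1% to 34.5% in males against females. The falls of light chain and c54139_g1_i1 towards adults kept their direction and stayed past the threshold under that scaling.

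**Figure D4:**
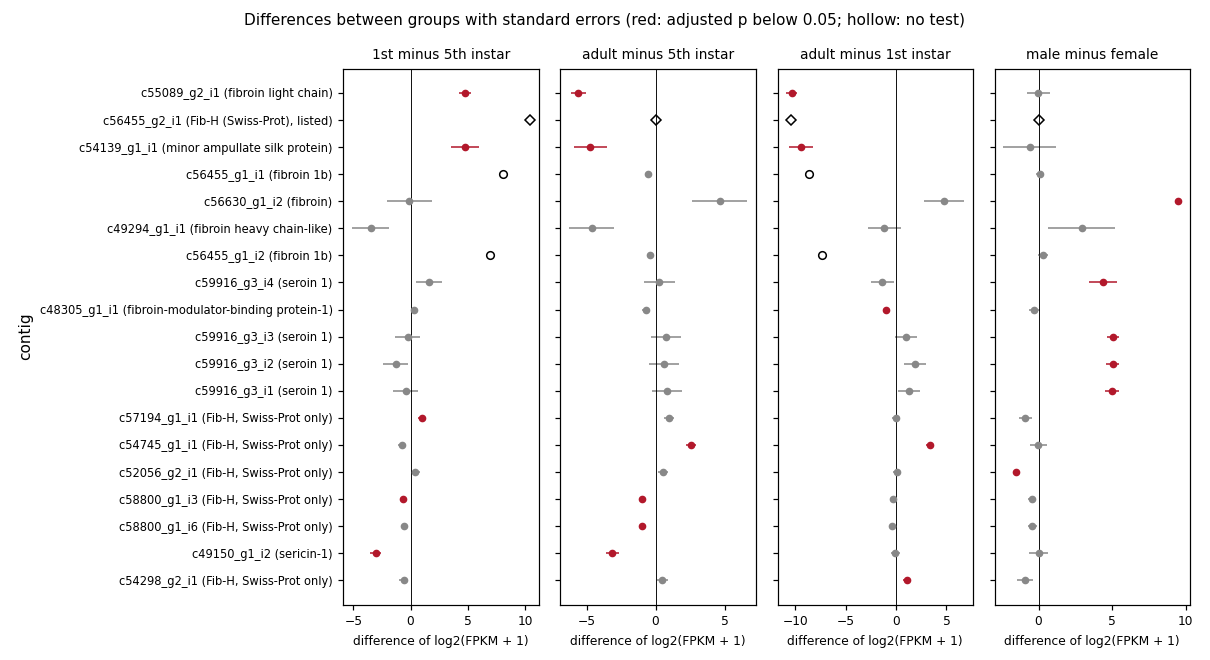
Difference of log2(FPKM + 1) with its standard error for the 19 contigs that passed the filter in 4 comparisons, in red where the limma adjusted p is below 0.05, with hollow marks for values given without a test (diamonds for the singled-out contig, and circles for the other contigs of its component in the comparisons with 1st instars). The light chain lies at 4.77, -5.59 and -10.36 in the stage comparisons and near 0 between the sexes, while c56630_g1_i2 lies at 9.45 between the sexes.

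The other genes of the pathway were read from lists of words. Of the 4 filament partners, which include c54139_g1_i1, P25 and c54139_g1_i1 were higher in 1st than in 5th instars, beside 21.7% of all tested contigs. The other 2 were lower, beside 18.4% of all tested contigs. These were c58685_g1_i5 and c58685_g1_i2, isoforms described as spidroin-1-like, after a spider silk protein, with a Swiss-Prot match to a glycine-rich RNA-binding protein. Isoform c58685_g1_i5 was at 9.61, 8.55, 47.7 and 19.1 FPKM in 5th instars and between 0.458 and 0.924 in 1st instars, a difference of -3.38 (SE 0.420, limma adjusted p 9.38e-05), and it passed the filter only through the 5th instars. Isoform c58685_g1_i2 differed by -1.56 (SE 0.412, limma adjusted p 0.0113). When all isoforms of the unigene were summed the difference was 0.29 (limma adjusted p 0.611), so the direction holds for these isoforms and not for their unigene sum. All 4 partners were called lower in adults than in 5th instars, beside 19.7% of all tested contigs. The calls of P25 and c54139_g1_i1 were lost with only those stages in the fit (limma adjusted p 0.0640 and 0.0643).

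Of labial gland products, taken as contigs described as glucose oxidase or lysozyme, 13 of 17 were tested, with 3 higher and 5 lower in 1st than in 5th instars and 1 higher and 6 lower in adults than in 5th instars, beside the shares over all contigs given above. One of these 13 is the contig named sericin-1. The glucose oxidase-like contig c59433_g1_i1, an enzyme of caterpillar saliva, was between 48.3 and 63.3 FPKM in 1st instars and between 114 and 227 in 5th instars. The groups did not overlap, but the difference of -1.45 did not pass (SE 0.816, limma adjusted p 0.179). That fit held male and female adults as 1 group, so the gap between them counts in its spread. Adults were at 19.8 and 18.3 in males and 0.448 and 0.466 in females, and fell by 4.83 from 5th instars (SE 0.816, limma adjusted p 8.71e-04). Unlike light chain and P25, this contig had its higher larval levels in the 5th instar.

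Genes of protein secretion were tested for 53 of 73 contigs, and 32 were higher and 3 lower in 1st than in 5th instars, with a median difference of 1.12. The ribosomal protein, actin and elongation factor contigs used as a control of scale moved the same way, with 168 higher and 8 lower of 268 and a median of 1.30. Over all tested contigs 21.7% were higher and 18.4% lower between these larval stages. Between adults and 1st instars 3 secretion contigs were higher and 36 lower, with a median of -1.41, and the control of scale had 18 higher and 192 lower and a median of -2.06. Over all tested contigs 14.1% were higher and 31.6% lower in that comparison. Sums over markers of other tissues were taken for each library. The midgut list summed to between 126760 and 143531 FPKM in 1st instars and between 66464 and 165452 in 5th instars, which overlap. The fat body list, which through the word hexamerin includes P25, summed to between 1153 and 1548 FPKM in 1st instars and between 44843 and 146897 in 5th instars, which do not. The part of these tissue shares in the level of the silk contigs was not tested.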

How the data were processed

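RNA was measured in 12 libraries of whole *H. armigera*. The authors trimmed the reads, assembled contigs with Trinity, mapped the reads with Bowtie (0.12.7, per the submitters' processing notes) and deposited FPKM values estimated with RSEM (1.1.17), beside contig descriptions from Swiss-Prot, nr, Pfam, KEGG and STRING. Their methods speak of mapping fewer libraries than the table holds. No per-sample column was left unmapped.

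Libraries were grouped by stage and adult sex from their labels. Contigs with a mean of at least 1 FPKM over the 12 libraries (27678) were tested on log2(FPKM + 1) in limma 3.58.1 (R 4.3.3) using its trend option, all libraries in 1 fit of 3 stages, or of 4 groups for the sexes. P-values were adjusted by Benjamini-Hochberg over all contigs tested, with a threshold of 0.05. Fold differences on this scale understate changes of low contigs. The fits were tested on simulated data. FPKM values keep no counts, so no count model or counting interval was used, and the number of libraries limits the precision. Other steps used Python 3.11.15, numpy 2.4.6, pandas 2.3.3 and matplotlib 3.10.9.

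Every contig matching fibroin, sericin or seroin is accounted for. Also named are the 5 described contigs, members left out, most correlated with the singled-out contig. Others are contigs among the largest called changes in 10 word lists. These lists are silk gland factors, filament partners, labial gland products, secretion, midgut, fat body, muscle, ovary, testis and control of scale. SGF-1 and the other isoforms of c56630_g1 were picked outside that rule after their values were seen. Members and lists were chosen with earlier results of these data known. Of the lists not described further, between 1st and 5th instar larvae muscle had 5 higher and 1 lower of 33 tested and ovary 10 and 7 of 31. Over all tested contigs 21.7% were higher and 18.4% lower there. Alternatives were other pseudocounts, filters and scalings, sums per unigene, a replicate block, robust variances, only the groups compared, the sexes as separate groups, and fits that each omitted 1 library. No sequences of contigs were used here.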

Additional observations from a re-analysis of the deposited data

Results flagged for a closer look

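Within groups of 4 libraries, 9 of 53 contig and stage combinations had 1 library far from the rest, judged by the gap to its neighbour as a share of the whole range (above Dixon's critical value). Chance gives about 1 in 20, or 2.65 here, and adult groups mix the sexes. The high libraries were 5th instar replicate 3 for c54139_g1_i1 (456 FPKM against 1.32 to 71.2 in the others, share 0.846), female replicate 3 for the same contig (1.69 against 0.097 to 0.218, share 0.924), 1st instar replicate 4 for c56455_g1_i2 (298 against 172 to 183, share 0.914) and male replicate 1 for that contig (0.672 against 0.107 to 0.182, share 0.867). Male replicate 1 was also high for the seroin isoform c59916_g3_i4 (84.9 against 0.079 to 14.2, share 0.834), and female replicate 3 for c54298_g2_i1 (7.03 against 1.52 to 2.06, share 0.903). For c49150_g1_i2, 1st instar replicate 1 was the only library of its stage above 0 (0.211, share 1). The low libraries were male replicate 1 for c48305_g1_i1 (6.47 against 9.46 to 9.91, share 0.870) and 5th instar replicate 2 for c58800_g1_i3 (6.63 against 9.13 to 9.54, share 0.856).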

How the results depend on the processing

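Counts of silk contigs called moved with the settings as follows. Larvae of the 1st instar had 2 lower than 5th instar larvae, but 4 with a pseudocount of 5, 5 with only those stages in the fit, and 1 without a filter, with a mean of at least 5, with quantile normalization, with unigene sums or with the replicate block. Adults had 1 higher than 5th instar larvae, but 2 without a filter, with quantile normalization or with unigene sums, and 4 with libraries scaled to the same sum or with the sexes as separate groups. They had 5 lower, but 3 with that scaling or quantile normalization. Adults had 2 higher than 1st instar larvae, but 6 with that scaling or the sexes as separate groups, and 1 with a pseudocount of 5, without a filter, with a mean of at least 5, with quantile normalization, with unigene sums or with the replicate block. Males had 5 higher than females, but 2 with unigene sums, and 1 lower, but 3 with that scaling and 0 with only the sexes in the limma fit, where 1 had an unadjusted p below 0.05. The cause of these shifts was not tested. The summed FPKM of 1st instar larvae was 3289 with that scaling. With each library left out, counts ranged from 4 to 5 higher and 1 to 3 lower in 1st against 5th instar larvae, 1 to 2 higher and 5 to 8 lower in adults against 5th instar larvae, 1 to 3 higher and 5 to 6 lower in adults against 1st instar larvae, and 4 to 6 higher and 1 lower in males against females.

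Same-numbered libraries showed no clear pairing, with correlations of their deviations from group means from -0.24 to 0.092. Numbers came from the sample titles, and the female columns are headed with other replicate numbers, which were not tried. With so few libraries of each sex this check cannot exclude a pairing. The replicate block lost the sex call of c59916_g3_i4 (adjusted p 0.0934), and it moved the calls over all contigs between the sexes from 3427 to 1520. Those calls were 1718 with only the sexes in the fit, 5864 without a filter, 5274 with libraries scaled to the same sum and 1800 with a mean of at least 5. With that mean, calls fell from 11089 to 5653 in 1st against 5th instar larvae, from 7482 to 4663 in adults against 5th instar larvae and from 12657 to 6903 in adults against 1st instar larvae, where fewer contigs were tested. Calls in adults against 5th instar larvae were 4534 with only those stages in the fit.

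Of 449 values of single contigs under settings other than leaving out a library, 407 kept direction and side of the threshold, 27 lost a call, 10 gained one and 5 turned sign. The sign turned for c48305_g1_i1 with libraries scaled to the same sum (0.17 against 1st and 0.30 against 5th instar larvae), for c61519_g1_i1 with that scaling (0.0012), and for c58685_g1_i5 and c58685_g1_i2 with isoforms summed (0.29 for both). Depth behind single values is unknown, so levels near 0 cannot be told from absence.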
